A study of Mus musculus with 80 samples.

Results

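The genes of the DNA replication machinery were followed in mouse lung after a single inhalation of styrene. The set was a written list of 49 genes whose products license origins, unwind and copy DNA, supply deoxynucleotides or package the new strands. Membership was by gene name, in a list drawn up with earlier results of these data known. Of these, 47 were measured among the 17097 genes with a probe set of 1 gene symbol. The origin recognition gene Orc3 had probe sets that carried 2 symbols and was not used, and the chromatin assembly gene Chaf1a was not in the annotation used here. A gene with several probe sets was read from the one of highest average signal.

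DNA replication starts where the origin recognition complex, with Cdc6 and Cdt1, loads the ring of Mcm2 to Mcm7 onto DNA. Cdc45 and the GINS complex turn that ring into a running helicase, primase and polymerase alpha lay down primers, and polymerases delta and epsilon extend them on the PCNA clamp. Most of these genes are transcribed under E2F factors as a cell passes from G1 into S phase, so their transcripts are scarce in resting tissue and abundant in dividing cells. Adult lung is largely quiescent, and its epithelium divides mainly after injury.

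The study compared 4 strains of adult male mice from Taconic, breathing air (0 ppm) or styrene at 10, 40 or 120 ppm in 1 exposure of 6 h. The C57Bl/6 wild type is called WT, the C57Bl/6 strain without CYP2F2 is called KO, the C57Bl/6 strain humanized for CYP2F1 is called TG, and the fourth strain was CD-1, an outbred stock. CYP2F2 is the mouse lung P450 that oxidizes styrene in club cells, and CYP2F1 is its human relative. The labels do not say which promoter drives CYP2F1 or whether TG also lacks the mouse gene. Each of the 16 groups held 5 biological replicates, 80 Affymetrix 3' arrays in all, made from whole lung collected the morning after the exposure.

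Values are log2 signal, so a difference of 1 is a doubling. Array medians differed by strain, with WT at 4.53 to 4.60, KO at 4.09 to 4.20, TG at 3.84 to 4.14 and CD-1 at 4.24 to 4.30, and TG 0 ppm replicate 4 was the lowest array, with the next at 4.07. Doses were therefore compared within a strain. The targeted gene Cyp2f2 read 11.5 to 11.9 in the 20 KO arrays and 11.5 to 12.0 in TG, against 12.0 to 13.3 in WT and 12.5 to 13.1 in CD-1, and in air it averaged 13.23 ± 0.03 (SD, n = 5) for WT, 13.02 ± 0.09 for CD-1, 11.68 ± 0.10 for KO and 11.66 ± 0.19 for TG. The labels do not place that probe set inside or outside the deletion, so a lower signal that is still present is what can be stated. The surfactant gene Sftpc averaged 13.8 in WT air and the club cell secretory gene Scgb1a1 13.8, as lung tissue holds. Of the thymocyte genes, Rag1 (3.33), Rag2 (2.83), Dntt (3.11) and Ptcra (2.97) read below the table's median of 4.28 in WT air. Cd8b1 (4.67) and Themis (4.35) of the same list read above it. In bulk lung, fewer cells of a type and less RNA per cell cannot be told apart.

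The E2F letters in the promoters are shown first, since E2F sites are the feature these genes are best known to share. The search used TTTCCCGC, TTTCGCGC, TTTGCCGC and TTTGGCGC on both strands of the RefSeq promoter windows (GRCm38.p6, 250 bases before to 50 after the start). Of 42 listed genes with a promoter entry, 16 (38.1%) held at least 1 match, against 704 of 27025 genes with an entry (2.6%) and 515 of 13605 genes on the array (3.79%). A match describes letters, not binding. A gene with several annotated starts counted once, if any of its windows matched. The 6 stretches of 60 bases below each lie upstream of 1 annotated start, 5′ to 3′ on the gene's strand, with the matched letters in capitals. Those of Mcm7, Cdc6, Pola1 and Uhrf1 lie within the annotated span of the gene, which begins at a start further upstream. They were chosen to show the helicase ring, a loader, a polymerase and the member with the largest change.

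Mcm5 (chr8:75109332-75109391, + strand, RefSeq): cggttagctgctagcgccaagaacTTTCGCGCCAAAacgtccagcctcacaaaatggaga
Mcm6 (chr1:128359780-128359839, − strand, RefSeq): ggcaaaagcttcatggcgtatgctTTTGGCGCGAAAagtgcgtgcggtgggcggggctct
Mcm7 (chr5:138172015-138172074, − strand, RefSeq): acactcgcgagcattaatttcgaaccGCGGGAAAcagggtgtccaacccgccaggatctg
Cdc6 (chr11:98907987-98908046, + strand, RefSeq): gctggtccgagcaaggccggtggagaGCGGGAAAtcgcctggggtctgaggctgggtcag
Pola1 (chrX:93632260-93632319, − strand, RefSeq): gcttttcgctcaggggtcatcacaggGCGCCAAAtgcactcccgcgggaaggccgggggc
Uhrf1 (chr17:56304102-56304161, + strand, RefSeq): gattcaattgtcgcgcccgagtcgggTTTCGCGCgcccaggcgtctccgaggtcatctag

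In Mcm5 and Mcm6 a match on each strand overlaps into 1 run of capitals, and in the other 4 genes the window holds 1 match. The CCAAT letters, which bind the factor NF-Y, were found in 25 of the 42 (59.5%) against 41.1% of all genes and 42.3% of genes on the array. The letters TTTGAA are found at the cell cycle homology region of many G2 and mitosis genes. These letters were in 5 of the 42 (11.9%) against 20.2% of all genes and 15.6% of genes on the array. They were in 15 of 20 mitosis genes with an entry, of which 1 held the E2F letters.

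In WT lung the replication genes rose at every dose. By limma, with p values adjusted over all genes by the Benjamini-Hochberg method and a threshold of 0.05, 30 of 47 were higher at 10 ppm, where 4.61% of all genes tested were called higher. At 40 ppm 35 of 47 were higher, against 8.57% of all genes, and at 120 ppm 35 of 47, against 9.02%. None was lower at any dose, where 2.7%, 7.71% and 5.76% of all genes were. The median change over the 47 was 0.40, 0.44 and 0.50 at 10, 40 and 120 ppm, while the median over all genes was -0.01, -0.001 and 0.01.

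The same shift was read array by array as the median, over the 47 genes, of the deviation from the WT air mean. The 5 air arrays lay between -0.07 and 0.09. Arrays at 10 ppm lay between 0.37 and 0.56, at 40 ppm between 0.32 and 0.56, and at 120 ppm between 0.45 and 0.56, so no exposed array overlapped air. In each exposed WT array 39 to 46 of the 47 genes stood above their air mean.

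**Figure D1:**
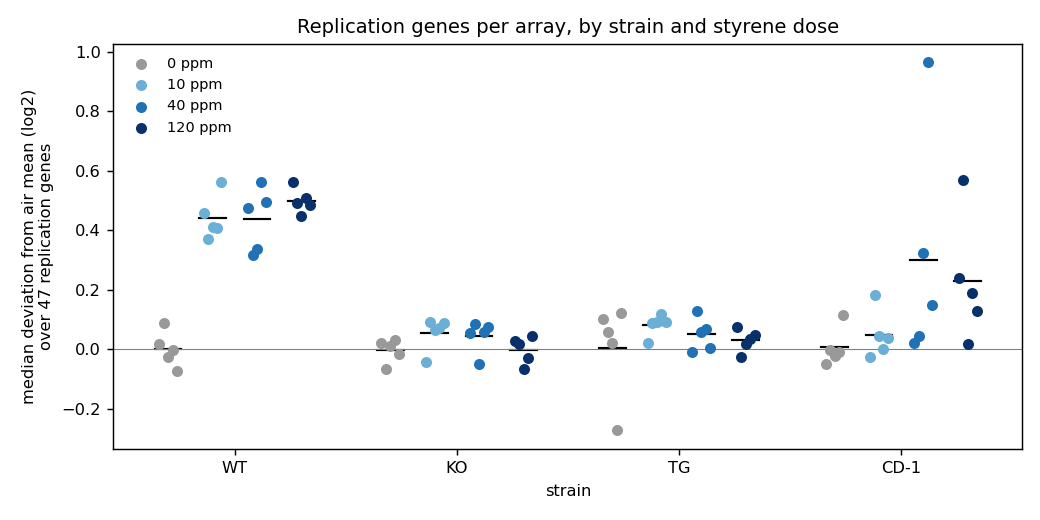
Median deviation of the 47 replication genes from their strain's air mean (log2, vertical axis) in each of the 80 arrays, by strain and dose, with a bar at each group's mean. All 15 exposed WT arrays lie at or above 0.32, KO and TG stay near 0 apart from 1 TG air array at -0.27, and CD-1 spreads up to 0.96 at 40 ppm.

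Among licensing genes, Cdt1 and Cdc6, which load the helicase, rose at each dose, and of the origin recognition subunits in the set Orc1 passed at 120 ppm, while Orc2, Orc5 and Orc6 did not. Orc4, measured in a wider list of fork genes, stood at 0.17 (adjusted p = 0.094). Cdt1 read 6.91, 7.11, 6.99, 7.08 and 6.86 in WT air and 7.95, 7.60, 7.86, 7.83 and 7.93 at 120 ppm. No array at 120 ppm was as low as the highest air array, and the change was 0.84 ± 0.09 (SE; 1.79-fold, adjusted p = 1.77e-06). Cdc6 read 3.45 to 4.54 in air and 4.90 to 5.61 at 120 ppm, again without overlap, a change of 1.09 ± 0.17 (adjusted p = 2.14e-04). Orc1 rose at 120 ppm by 0.27 (adjusted p = 0.0291), although its signal lay below the table's median in all 80 arrays. Orc2 was called at 10 and 40 ppm (0.20 and 0.18) and stood at 0.10 at 120 ppm, where its second probe set gave 0.41 and passed. Orc6 was called at 40 ppm (0.32) and stood at 0.17 at 120 ppm, and Orc5 at -0.13 with an adjusted p of 0.121. Over the 6 measured licensing genes, 3 of 6 were higher at 120 ppm, with a median of 0.22. Beside this and the counts by role that follow, 4.61%, 8.57% and 9.02% of all genes were higher at 10, 40 and 120 ppm.

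The helicase ring moved as a whole. All 6 of Mcm2 to Mcm7 were higher at each WT dose, with medians of 0.68, 0.61 and 0.68. Mcm3 read 5.66, 5.46, 5.50, 5.64 and 5.52 in air, and 6.48, 6.30, 6.57, 6.35 and 6.29 at 120 ppm. At 10 ppm it already read 6.18 to 6.48 and at 40 ppm 6.00 to 6.61, so every exposed array lay above every air array. Its change was 0.79, 0.69 and 0.84 at the 3 doses (SE 0.09, adjusted p up to 3.52e-05). At 120 ppm Mcm5 had the largest change of the ring, 1.01 ± 0.12 (2.01-fold), and Mcm7 the smallest, 0.45 (1.37-fold, adjusted p = 4.42e-03).

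Among the factors that switch the ring on, Gins1, Gins2, Cdc45 and Mcm10 were higher at all 3 doses, and the remaining GINS subunits Gins3 and Gins4 were not called at any. Gins2 read 4.20, 4.25, 4.58, 4.14 and 4.43 in air and 5.38, 5.09, 5.21, 5.20 and 5.25 at 120 ppm. The 2 sets of arrays did not overlap, and the change was 0.91 ± 0.10 (adjusted p = 3.87e-06). Gins1 changed by 0.81 and Mcm10, which helps start unwinding, by 0.89. Gins4, in the same four-part complex, read 7.46 to 7.80 in air and 7.63 to 7.77 at 120 ppm, one range inside the other (0.06, 95% interval -0.06 to 0.18, adjusted p = 0.573). Gins3 stood at 0.30 with an adjusted p of 0.104.

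Primase and polymerase alpha, which begin each new strand, were called in 4 of 4 genes at 120 ppm (median 0.48). Prim2, the large primase subunit, read 5.34, 5.33, 5.20, 5.04 and 5.31 in air and 5.94, 5.75, 5.83, 5.76 and 5.98 at 120 ppm. The lowest exposed array stood above the highest air array, with a change of 0.61 ± 0.07 (1.53-fold, adjusted p = 3.87e-06). Other Prim2 probe sets, of mean signal 4.54 and 3.01, gave 0.18 each. They did not pass in limma over all probe sets (adjusted p = 0.45 and 0.0902). The catalytic primase Prim1 changed by 0.60, Pola1 by 0.36 and Pola2 by 0.23, and for both polymerase subunits the arrays overlapped. Pola2 passed narrowly (adjusted p = 0.0482) and was not called at 10 or 40 ppm.

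Of the main copying enzymes, the epsilon subunits Pole and Pole2 and the delta subunit Pold2 rose. Pole, the catalytic subunit of the leading strand polymerase, read 3.59, 3.59, 3.43, 3.21 and 3.27 in air, and 5.00, 4.39, 4.56, 4.70 and 4.58 at 120 ppm. Air arrays were all below the table's median signal, and the exposed arrays were clear of them, with a change of 1.23 ± 0.12 (2.35-fold, adjusted p = 1.12e-06). Pole2 changed by 0.74 and the delta subunit Pold2 by 0.51. Pold1, the catalytic delta subunit, stood at 0.29 (adjusted p = 0.0631) and Pold3 at 0.14, neither called. The small epsilon subunits stood in the wider fork list, where Pole4 rose by 0.38 (adjusted p = 2.21e-03) and Pole3 was at -0.004. Whether epsilon and delta differ was not tested.

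The sliding clamp and its loader followed. Pcna, the clamp itself read 10.6 to 10.8 in air and 10.9 to 11.1 at 120 ppm, a rise of 0.30 (1.23-fold, adjusted p = 1.97e-03) without overlap. In the loader, Rfc5 read 5.70, 5.63, 5.56, 5.55 and 5.45 in air and 6.37, 6.21, 6.11, 6.46 and 6.44 at 120 ppm. Its 2 groups stood apart (0.74 ± 0.08, adjusted p = 3.72e-06), and Rfc4 rose by 0.76 and Rfc3 by 0.43. The large loader subunit Rfc1 read 7.41 to 7.66 in air and 7.58 to 7.76 at 120 ppm, overlapping, with a change of 0.10 (95% interval -0.03 to 0.23, adjusted p = 0.322). Rfc2 stood at 0.14 and was not called.

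Both genes that finish Okazaki fragments rose at every dose. Fen1, the flap nuclease, read 5.75, 5.65, 5.58, 5.56 and 5.07 in air and 6.44, 6.22, 6.37, 6.34 and 6.51 at 120 ppm. Exposed arrays lay above all air arrays, air replicate 5 being the lowest, and the change was 0.85 ± 0.11 (adjusted p = 3.47e-05). Lig1, the replicative ligase, rose by 0.62. Replication protein A, which coats single-stranded DNA in repair as well as in replication, had 2 of 3 genes called at 120 ppm. Rpa2 read 6.03, 6.21, 5.98, 6.08 and 6.07 in air and 6.49, 6.26, 6.25, 6.56 and 6.43 at 120 ppm, close but without overlap. It rose by 0.32 ± 0.08 (adjusted p = 6.26e-03), though in a fit over all 80 arrays the adjusted p was 0.0635. Rpa1 rose by 0.18 and Rpa3 stood at -0.14, not called.

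The genes of deoxynucleotide supply rose together at 40 and 120 ppm. Rrm2, the S phase subunit of ribonucleotide reductase, read 4.72, 5.14, 4.77, 4.49 and 4.49 in air. At 120 ppm it read 6.19, 5.79, 6.09, 6.29 and 6.23, and at 10 ppm already 5.66 to 6.00. All exposed arrays were higher than all air arrays, with a change of 1.40 ± 0.12 at 120 ppm (2.63-fold, adjusted p = 2.51e-07). Tk1, thymidine kinase, rose by 1.31 (2.48-fold), Tyms, which makes thymidylate, by 0.75, Dut, which clears dUTP, by 0.47 and Rrm1, the large reductase subunit, by 0.37. At 40 and 120 ppm 5 of 5 of these genes were called, and at 10 ppm 3 of 5, Rrm1 and Dut having adjusted p values of 0.0743 and 0.0779.

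Among chromatin and S phase regulators, Uhrf1, which carries DNA methylation onto new strands, had the largest change of all members. It read 4.83, 5.26, 4.78, 4.64 and 4.61 in WT air and 6.48, 6.27, 6.55, 6.53 and 6.45 at 120 ppm. Arrays at 10 ppm read 6.01 to 6.50 and at 40 ppm 6.03 to 6.57, all clear of air. The changes were 1.46, 1.54 and 1.63 at 10, 40 and 120 ppm (SE 0.12, 3.10-fold at 120 ppm, adjusted p = 4.73e-08), and a second Uhrf1 probe set gave 1.01. Chaf1b, a histone chaperone subunit, rose by 0.41, and the histone mRNA binding protein gene Slbp stood at 0.17, not called. E2f1 itself read 5.56 to 5.92 in air and 5.64 to 5.80 at 120 ppm, one range within the other (0.02, 95% interval -0.15 to 0.18, adjusted p = 0.927).

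**Figure D2:**
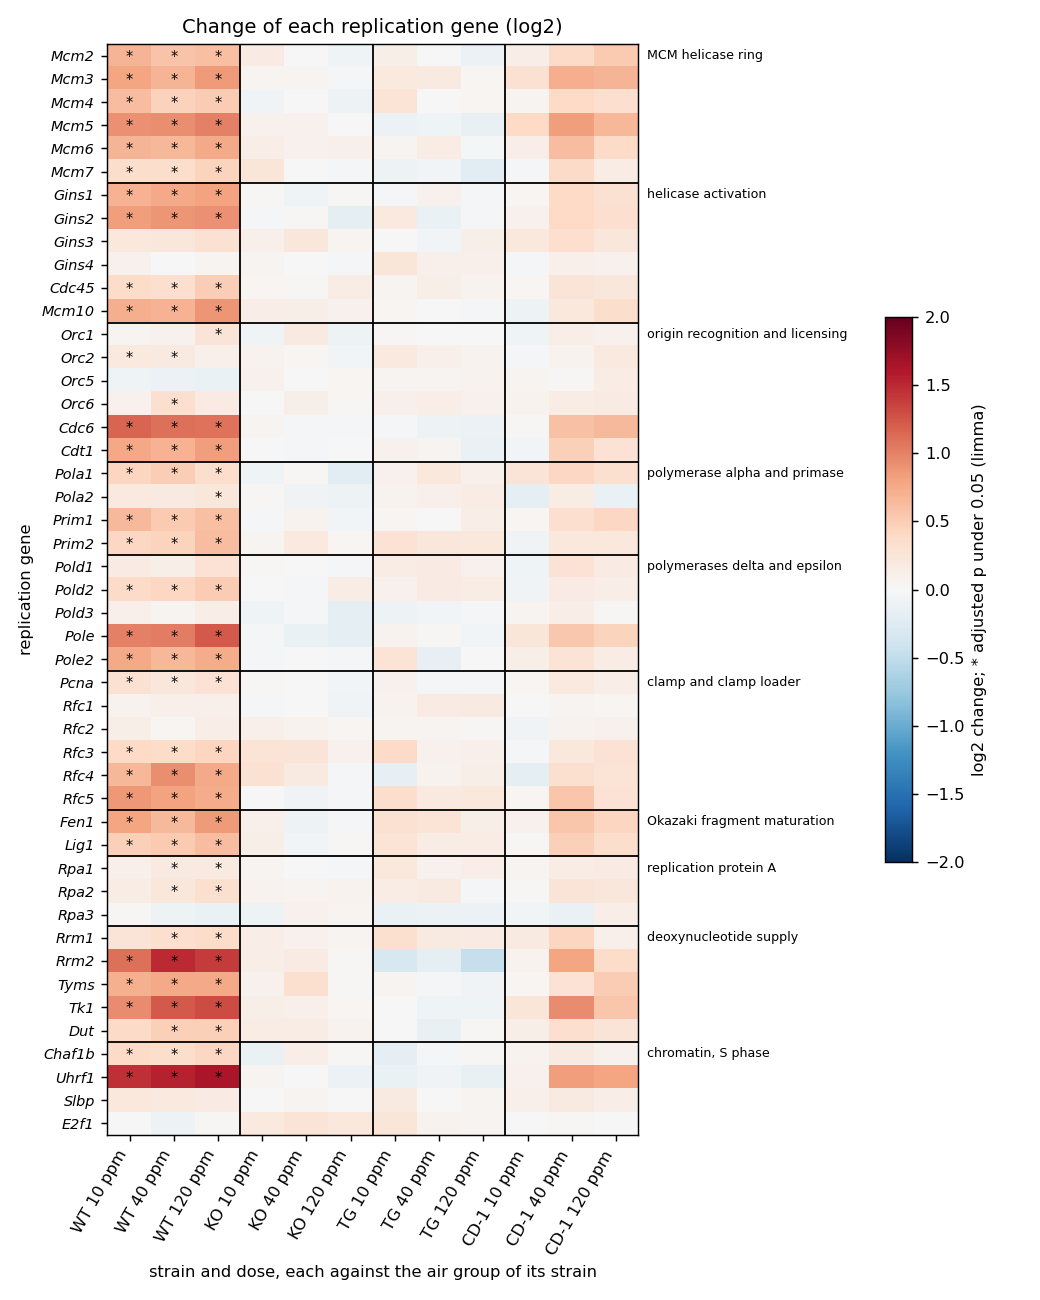
Log2 change of each of the 47 replication genes (rows, grouped by role) against the air group of its strain, for each strain and dose (columns), with a star where limma's adjusted p was under 0.05. Stars stand in the 3 WT columns alone, 30, 35 and 35 of them; Uhrf1, Rrm2, Tk1, Pole, Cdc6 and Mcm5 are the deepest rows, and Orc5, Rpa3, Rfc1, Gins4 and E2f1 stay pale.

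The 3 WT comparisons share the same 5 air arrays, and no member was called between WT doses. Direct contrasts between exposed groups called 0 of 47 from 10 to 40 ppm, 0 from 10 to 120 ppm and 0 from 40 to 120 ppm by limma, with 4, 5 and 2 members below 0.05 before adjustment and lowest adjusted p values of 0.171, 0.252 and 0.72. The median differences were -0.02, 0.07 and 0.06. Over all genes these contrasts called 0.497%, 0.45% and 0% in either direction.

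The choice of probe set bore on single genes. The 47 genes were read by 86 probe sets, and 29 genes had more than 1. Of the 39 probe sets not used, 35 changed in the same direction as the one used at 120 ppm in WT, 13 passed as higher over all probe sets, none passed as lower, and 21 averaged below the table's median signal. The second probe set of Rrm2 gave 1.12 and that of Rrm1 0.40, near the values above. The other probe sets of Tyms and Mcm5, all of low signal, stood between -0.02 and 0.12.

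Genes with and without E2F letters in the promoter were among those that rose. Among measured members, 12 of 15 with a match and 18 of 25 without were called higher in WT at 120 ppm, where 9.02% of all genes were. Their median changes were 0.62 and 0.41. Uhrf1, Cdc6 and Mcm5, whose windows are printed above, changed by over 1, while Pold3 (0.14), Gins3 (0.30) and Pold1 (0.29) carry the letters too and were not called. The difference between both groups was not tested.

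In KO lung no replication gene was called at any dose. The median change over the 47 was 0.06 at 10 ppm, 0.03 at 40 ppm and -0.002 at 120 ppm, and limma called 0 in each (5, 3 and 3 below 0.05 before adjustment, smallest adjusted p 0.541, 0.923 and 0.755). Over all 17097 genes it also called 0%. Uhrf1 read 3.86 to 4.26 in KO air and 3.67 to 4.13 at 120 ppm, and Rrm2 3.45 to 4.14 and 3.69 to 4.11, so both pairs of groups overlapped. All of these values lay below the table's median of 4.28.

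In TG lung the counts were also 0 of 47 at each dose, where 0%, 0% and 0.0292% of all genes were called in either direction. The medians were 0.08, 0.05 and 0.04, with 12, 0 and 3 members below 0.05 before adjustment and smallest adjusted p values of 0.244, 0.713 and 0.129. TG 0 ppm replicate 4 had the lowest value of its group in 37 of the 47 genes, and without it the medians were 0.01, -0.005 and -0.04. The change of largest size at 120 ppm was that of Rrm2, at -0.45 and not called, with 3.15 to 3.60 in air and 2.63 to 3.28 at 120 ppm. Both ranges lay below the table's median of 4.28.

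The difference in response between strains was tested gene by gene as the WT change minus the change of the other strain. Against KO, 20, 21 and 24 of the 47 had a larger change in WT at 10, 40 and 120 ppm, where 2.83%, 4.26% and 4.35% of all genes did. Against TG the counts were 17, 20 and 22, where 1.57%, 2.32% and 2.28% of all genes had a larger change. In a fit over all 80 arrays, whose share of all genes is not given here, the counts at 10 ppm were 10 against KO and 9 against TG. All of these contrasts share the WT arrays, so they are set side by side and not read as separate evidence.

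At 120 ppm the difference from KO was largest for Uhrf1, at 1.75 (95% interval 1.40 to 2.09, adjusted p = 3.11e-09). It was 1.42 for Pole, 1.38 for Rrm2, 1.10 for Gins2 and 0.88 for Mcm3. Against TG it was 1.85 for Rrm2 (1.51 to 2.19, adjusted p = 8.42e-10), 1.79 for Uhrf1, 1.28 for Pole, 0.98 for Cdt1 and 0.81 for Mcm3. Rpa2 did not pass against either strain (0.25 and 0.34, adjusted p 0.118 and 0.259), nor did Prim2 against TG (0.40, adjusted p = 0.154). Several of the largest differences fell on genes of low signal in KO and TG. Pole, Rrm2 and Gins2 read above the table's median of 4.28 in 0 of 20 arrays of each of these strains. Uhrf1 did so in 2 of 20 KO arrays and 1 of 20 TG arrays. Of the 5 WT air arrays, Pole did so in 0, Gins2 in 2, and Rrm2 and Uhrf1 in 5. The table's median is not centred by strain: it lies above the array median of every KO and TG array and below that of every WT array.

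**Figure D3:**
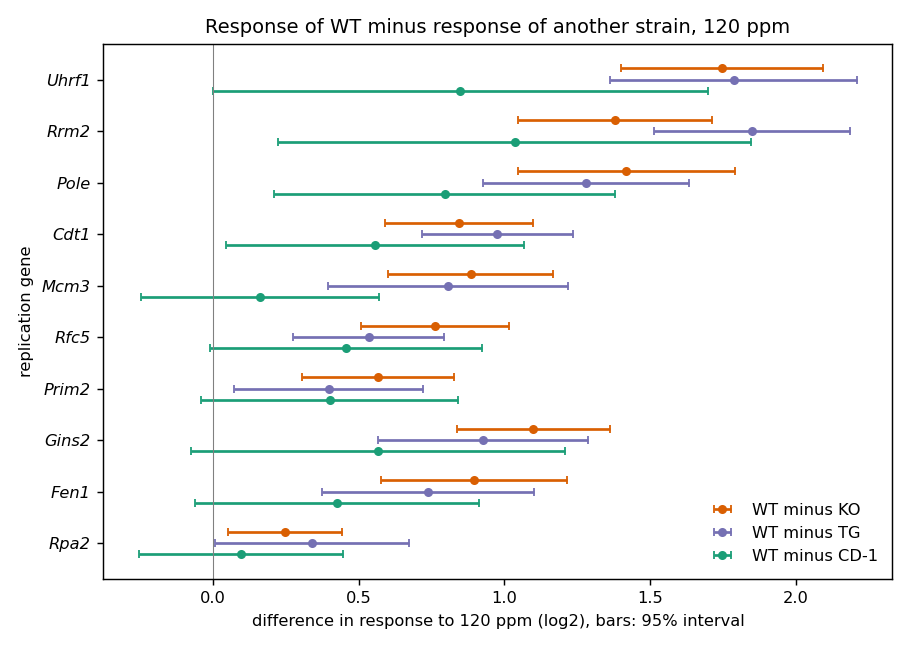
Change at 120 ppm in WT minus the change in KO, TG or CD-1 (log2, horizontal axis) for 10 replication genes, with 95% intervals from limma. The genes are those with the lowest limma p of their role in WT at 120 ppm, a choice that favours large differences. For Uhrf1 the differences from KO and TG are 1.75 and 1.79, and the CD-1 intervals are wider and for 7 of the 10 genes reach 0 or below.

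In CD-1 lung single animals stood high. No member was called at 10, 40 or 120 ppm (0%, 0.00585% and 0.0117% of all genes were, in either direction), with 1, 17 and 11 below 0.05 before adjustment and smallest adjusted p values of 1, 0.465 and 0.44. The median changes were 0.04, 0.29 and 0.23, and at 40 and at 120 ppm 46 of the 47 had a positive sign. The per-array medians at 40 ppm were 0.02, 0.04, 0.32, 0.96 and 0.15, and at 120 ppm 0.24, 0.57, 0.02, 0.19 and 0.13, against -0.05 to 0.12 in air. At 40 ppm 2 arrays lay within the air range and at 120 ppm 1 did, and at each dose the highest array stood well above the next.

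CD-1 40 ppm replicate 4 had the highest value of its group in 41 of the 47 genes and CD-1 120 ppm replicate 2 in 34. In the CD-1 air arrays Uhrf1 read 4.11, 4.28, 4.06, 4.41 and 4.52. At 40 ppm it read 4.43, 4.59, 5.09, 6.74 and 4.75, and at 120 ppm 5.54, 6.33, 4.19, 4.98 and 4.27. Its lowest arrays at each dose lay among the air arrays and its highest stood far above them (0.84 and 0.78, adjusted p = 1 for both). Rrm2 and Tk1 reached 6.69 and 6.85 in replicate 4 at 40 ppm, against 4.92 and 4.09 in the highest air arrays. Without that array the median change over the 47 at 40 ppm was 0.14, and without replicate 2 the one at 120 ppm was 0.16.

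Mcm3 was 1 of the members whose CD-1 arrays moved together. It read 5.06, 5.18, 4.98, 5.03 and 5.25 in air, 5.38, 5.73, 5.87, 6.56 and 5.64 at 40 ppm, and 5.69, 6.32, 5.45, 5.84 and 5.62 at 120 ppm. Every array at both doses lay above every air array, with changes of 0.73 ± 0.17 and 0.68 ± 0.17, and it did not pass over all genes (adjusted p = 0.465 and 0.44). In a fit over all 80 arrays, which pools the spread of the strains, it passed at both doses, with 4 members called at 40 ppm and 2 at 120 ppm. The share of all genes called in that fit is not given here. In CD-1, 2 of 47 members at 40 ppm and 4 of 47 at 120 ppm were higher without overlap, where 0.45% and 0.614% of all genes were. In WT at the same doses 25 and 31 were, where 7.07% and 8.55% of all genes were.

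The direct comparison of WT with CD-1 called no member (0 of 47 at each dose, where 1.14%, 0.778% and 2.44% of all genes were called in either direction; 23, 1 and 7 below 0.05 before adjustment). This does not show that the strains respond alike. At 120 ppm the 95% interval of WT minus CD-1 was -0.002 to 1.70 for Uhrf1, 0.22 to 1.85 for Rrm2, 0.21 to 1.38 for Pole and -0.25 to 0.57 for Mcm3. At 10 ppm the median difference over the 47 was 0.43 and the lowest adjusted p was 0.0548, for Mcm4 (0.56, 95% interval 0.25 to 0.86). In the fit over all 80 arrays 8 members passed at 10 ppm and 1 at 120 ppm, and the share of all genes passing there is not given here. At 40 ppm the median difference was 0.09. Without CD-1 40 ppm replicate 4, Gins2, Pole2 and Tyms passed at 40 ppm, and without CD-1 120 ppm replicate 2, Pole, Pole2 and Rrm2 passed at 120 ppm. These 2 arrays held the highest value of their group for most members, so leaving either out lowers the CD-1 change of those members. Of the 20 runs that each left out 1 array, 1 called any member at 40 ppm and 4 did at 120 ppm. The share of all genes passing in these runs is not given here.

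**Figure D4:**
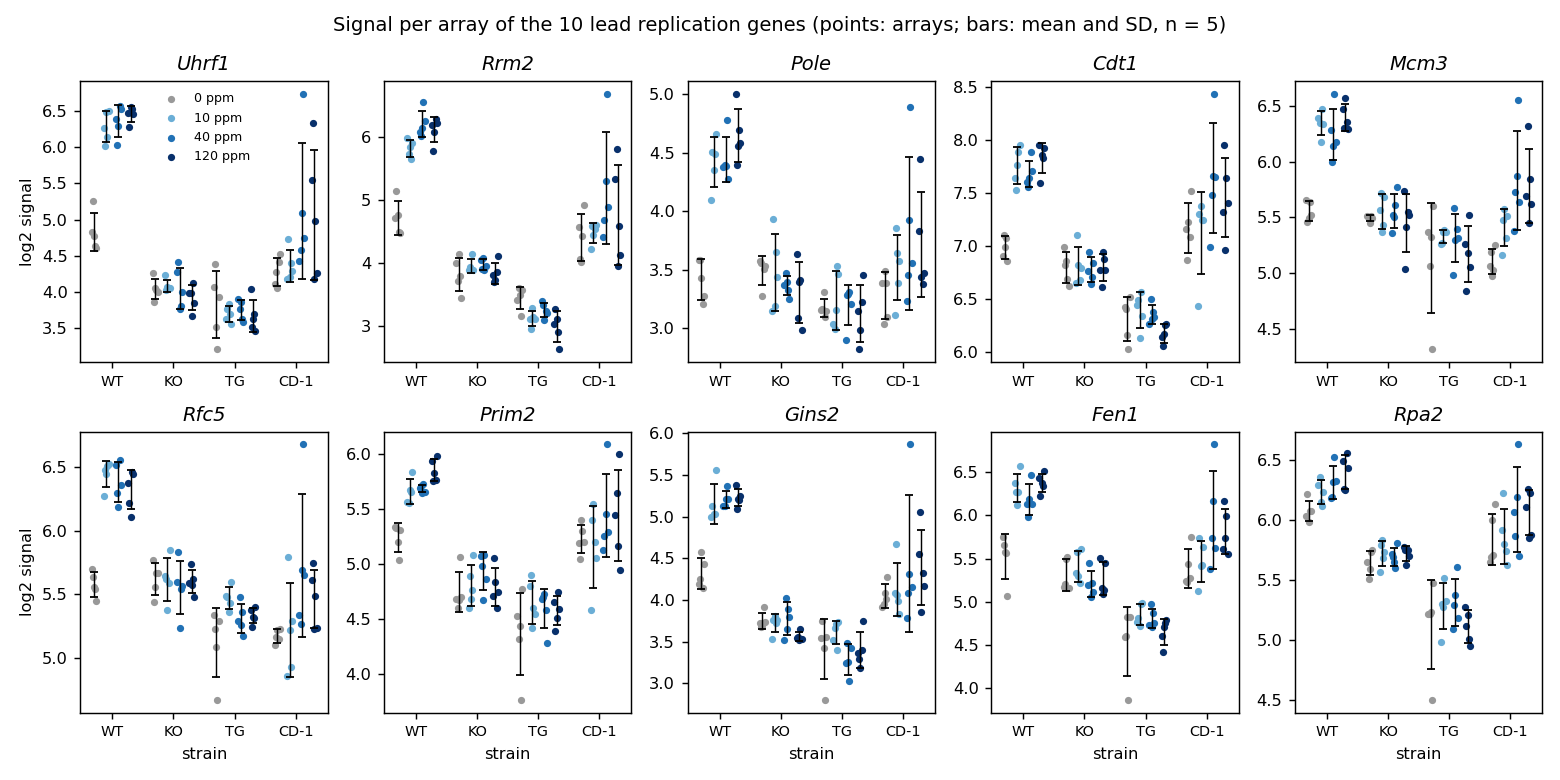
Log2 signal of 10 replication genes in each array by strain and dose, with group means and SD (n = 5). The genes are those with the lowest limma p of their role in WT at 120 ppm, a choice that favours standing apart from air there. Over all 47 genes, 25 at 40 ppm and 31 at 120 ppm were higher in WT without overlap. Of all genes 7.07% and 8.55% were. In WT the exposed arrays stand apart from air for each gene but Rpa2, whose arrays overlap air at 10 and 40 ppm (Uhrf1 reads 4.61 to 5.26 in air and 6.27 to 6.55 at 120 ppm), in KO and TG the doses lie near air, and in CD-1 the spread widens at 40 and 120 ppm.

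In air the strains were compared on values centred on each array's median, since the arrays of the strains differ in overall level. Over all genes the centred median difference from WT was 0.05 for KO, 0.10 for TG and 0.09 for CD-1, and member differences below are given relative to it. In KO 3 members were higher than in WT and 7 lower, where 10.8% and 4.25% of all genes were. The KO total of 10 was 5 without WT 0 ppm replicate 2, 6 without WT 0 ppm replicate 1 and 6 without KO 0 ppm replicate 5. In TG 4 were higher and 19 lower (26.5% and 9.66% of all genes), and in CD-1 5 and 4 (22% and 8.42%). Without centring, the deposited values called 0 higher and 40 lower for KO, 0 and 45 for TG, and 1 and 26 for CD-1. The counts of higher and of lower genes therefore both rest on the centring. The share of all genes called without centring is not given here, so these counts are not read as a result about the members.

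All 3 air comparisons share the WT arrays, so their values are given side by side. Rrm2 stood at -0.56 in KO and -0.87 in TG, and Tk1 at -0.56 and -0.64. In KO Mcm5 was at -0.62 and Cdc45 at -0.48. TG was also lower in Dut (-0.69), Uhrf1 (-0.59), Fen1 (-0.57) and Rpa2 (-0.53), and the 47 genes had a relative median of -0.30 there, against -0.08 in KO and -0.09 in CD-1. Without TG 0 ppm replicate 4 the TG counts were 4 higher and 15 lower. Pole was higher in both KO (0.42) and TG (0.17) on centred values, at signals below the table's median in every array of these strains and in every WT air array. CD-1 air stood above WT in Gins3 (0.49), E2f1 (0.41) and Cdt1 (0.40), and below it in Orc6 (-0.66), Pold1 (-0.59) and Tk1 (-0.44).

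In a wider list of fork and S phase genes, of 30 measured, 11 were higher at 10 ppm in WT, 12 at 40 ppm and 12 at 120 ppm, with 1 lower at 40 ppm. Of all genes 4.61%, 8.57% and 9.02% were higher at these doses, and 7.71% lower at 40 ppm. At 120 ppm the list's median was 0.18. Hells, a chromatin remodeller that works with DNA methylation, rose by 2.18 ± 0.16 (adjusted p = 2.56e-08), more than any of the 47 members. The repair gene Brca1 rose by 0.91, the fork scaffold gene Wdhd1 by 0.78 and the histone chaperone gene Asf1b by 0.76. Of 24 cell cycle regulators 5, 11 and 9 were higher at 10, 40 and 120 ppm, with 1 lower at 40 ppm, against the same shares of all genes (4.61%, 8.57% and 9.02% higher, 7.71% lower at 40 ppm). They included Myc (0.63 at 120 ppm), Cdkn1c, an inhibitor of cyclin-dependent kinases (0.55), E2f3 (0.42) and Cdk2, the S phase kinase (0.38).

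Of the mitosis genes 3, 7 and 9 of 24 rose at 10, 40 and 120 ppm, where 4.61%, 8.57% and 9.02% of all genes did. None was lower (2.7%, 7.71% and 5.76% of all genes were), and the median was 0.26 at 120 ppm. Top2a, which untangles chromosomes, rose by 1.09 ± 0.21 (adjusted p = 1.59e-03), Cdk1, the mitotic kinase, by 1.04, Aurkb by 0.58 and the spindle motor gene Kif11 by 0.48. WT air arrays spread widely for this list, with per-array medians of 0.09, 0.38, -0.12, -0.13 and -0.20 against 0.23 to 0.37 at 120 ppm, so the groups overlapped. For the replication genes the same measure did not overlap. In KO, TG and CD-1 none of these 3 lists had a called gene at 120 ppm, and CD-1 40 ppm replicate 4 stood at 1.31 on the mitosis list.

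**Figure D5:**
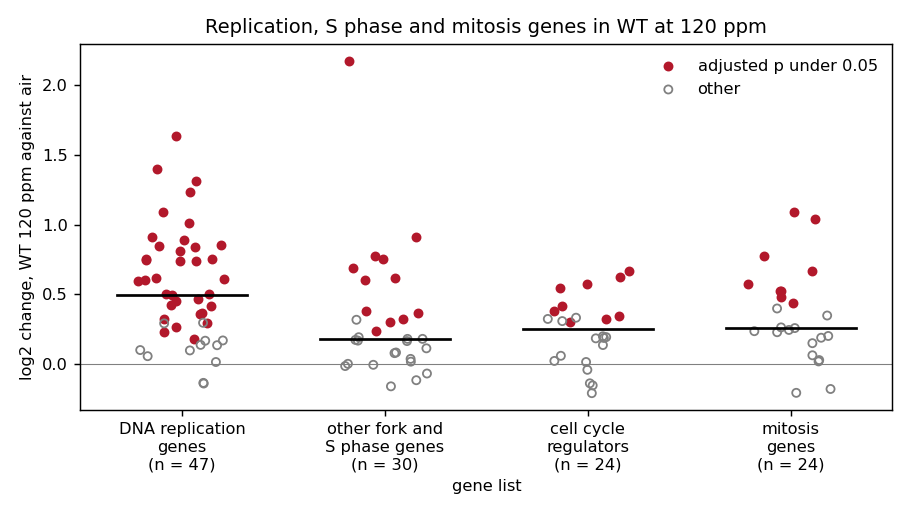
Log2 change in WT at 120 ppm against air for each gene (points) of 4 lists, with a line at the list's median, filled where limma's adjusted p was under 0.05. The replication genes have a median of 0.50 against 0.18, 0.25 and 0.26 for the other lists, and the highest point of all is Hells at 2.18.

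Markers of other cells moved beside the replication genes in WT. At 120 ppm 7 of 10 club cell markers were lower and 2 higher (median -0.70), where 5.76% and 9.02% of all genes were. Retnla (1.29) and Sftpd (0.27) were the higher ones, and Scgb1a1 was not called (-0.09, limma adjusted p = 0.143). Scgb1a1 averaged 13.82 in WT air, near the highest value on any array, 13.89. Whether a fall is compressed at that level was not tested. The median array of the list's mean log2 signal was 11.1 in air (highest 11.3) and 10.5 at 120 ppm (highest 10.6), without overlap. Of 6 ciliated cell markers 3 were lower (median -0.47). B cell markers had a median of 0.44 with 0 of 4 called, and list means of 5.44 to 6.03 in air and 5.87 to 6.39 at 120 ppm. At 10 ppm Ms4a1 stood at 0.43, Cd79b at 0.25, Cd79a at 0.23 and Pax5 at 0.06, and at 40 ppm the B cell median was 0.03. T and NK cell (0.09), neutrophil (0.12), thymocyte (-0.001) and erythroid (0.03) markers had 0 called at 120 ppm, as did endothelial markers (0.04). In the remaining lists single markers were called: Siglecf of the macrophage list at -1.02, Dcn at -0.77 and Col1a2 at 0.37 of the fibroblast list, Aqp5 of the alveolar type 1 list at 0.29 and Slc34a2 of the alveolar type 2 list at 0.14. The part of cell composition in the changes was not tested.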

How the data were processed

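Whole lung RNA of 80 mice was read on Affymetrix 3' arrays, and labels give 5 biological replicates per group. The authors deposited log2 signal of 45037 probe sets. The submitters' processing notes name RMA and Partek. Versions, settings and any joint normalization of the strains were not given in the sources used here. In the annotation used, 28898 probe sets had 1 symbol, 551 had several and 15588 were unlisted. The brightest probe set (highest mean over 80 arrays) stood for each of 17097 genes, with no filter on level, so all 47 measured members were tested.

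Linear models were fitted in R 4.3.3 by the limma package, 3.58.1, with tables handled by the data.table package, 1.17.8. Each strain was fitted alone (20 arrays, a mean per dose). Differences in response used the 40 arrays of 2 strains, and air comparisons the 20 air arrays after centring on array medians. Adjustment was Benjamini-Hochberg, across the 17097 genes in each contrast, with a threshold of 0.05. Errors are standard errors, and intervals are 95% from the same fit. The number of arrays limits the precision: the median standard error over members was 0.091 in WT and 0.165 in CD-1. The code was tested on simulated data. Arrays within a group correlated at 0.982 to 0.997, and no batch is given in the sources used here.

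Alternatives were a filter on low values (above the table median of 4.28 in 5 arrays, leaving 11406 genes), a variance trend, quantile normalization, array median centring, the mean of all probe sets, all 80 arrays in 1 fit, a replicate block, and leaving out each array. Values per array are given for the member of each role with the lowest p in WT at 120 ppm, and for the 3 members that missed the test with the largest p, plus Cdc6 and Pcna, chosen after their values were seen. Up to 4 genes of each further list were named by lowest p, and Orc4, Pole3, Pole4 and single cell type markers after their values were seen. Members and lists were chosen with earlier results of these data known. RefSeq promoter windows (GRCm38.p6) were matched by symbol, and no entry was used for Mcm4, Gins1, Gins2, Gins4, Prim2, Pole and Rfc2.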

Additional observations from a re-analysis of the deposited data

Results flagged for a closer look

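The response to styrene differed between WT and both other C57Bl/6 strains by a test of the difference itself (limma interaction contrast). Against KO, 20, 21 and 24 of the 47 replication genes had a larger change in WT at 10, 40 and 120 ppm. Of all genes 2.83%, 4.26% and 4.35% did. Against TG the counts were 17, 20 and 22, where 1.57%, 2.32% and 2.28% of all genes had a larger change. In a fit over all 80 arrays, whose share of all genes is not given here, the counts at 10 ppm were 10 and 9. At 120 ppm the WT minus KO differences were 0.884 for Mcm3, 1.1 for Gins2, 0.845 for Cdt1, 0.566 for Prim2, 1.42 for Pole, 0.762 for Rfc5, 0.895 for Fen1, 1.38 for Rrm2 and 1.75 for Uhrf1. The WT minus TG differences were 0.807 for Mcm3, 0.927 for Gins2, 0.976 for Cdt1, 1.28 for Pole, 0.535 for Rfc5, 0.738 for Fen1, 1.85 for Rrm2 and 1.79 for Uhrf1. Pole, Rrm2 and Gins2 read below the table's median in every KO and TG array, and Pole also did in every WT air array.

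In 21 of 224 groups of values checked, the gap between 1 array and the nearest other was large relative to the whole range of its group. For independent normal values chance gives about 1 in 20. In a tight group such a gap can be small. The checks cover related genes on the same arrays, and an array can recur, so 21 of 224 is not read as an excess. In CD-1 at 40 ppm, replicate 4 had Uhrf1 at 6.74 (nearest array 5.09) and Gins2 at 5.87 (nearest 4.31). At 10 ppm CD-1 replicate 1 had Cdt1 at 6.43, below the nearest array at 7.24, and in CD-1 air replicate 5 had a median deviation over the replication genes of 0.115 (nearest -0.00457).

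In TG air, replicate 4 had a median deviation of -0.273 (nearest 0.0208), Fen1 at 3.87 (nearest 4.59) and Rpa2 at 4.5 (nearest 5.22), and its array median was the lowest of all 80. TG at 40 ppm held Pole at 2.9 in replicate 1 (nearest 3.2) and Gins4 at 6.87 in replicate 5 (nearest 7.15).

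In KO air, replicate 3 had Pole at 3.27 (nearest 3.5) and Mcm3 at 5.45 (nearest 5.49), and replicate 4 had Prim2 at 5.06 (nearest 4.7) and Gins2 at 3.91 (nearest 3.73). At 10 ppm KO replicate 1 had a median deviation of -0.0423 (nearest 0.0651) with Uhrf1 at 4.24 (nearest 4.08), and replicate 4 had Rrm2 at 4.15 (nearest 3.94). At 40 ppm KO replicate 3 had a median deviation of -0.0509 (nearest 0.0537), and at 120 ppm replicate 4 had Rfc1 at 6.93 (nearest 7.19). In WT, Fen1 was 5.07 in air replicate 5 (nearest 5.56), Gins2 5.56 in 10 ppm replicate 5 (nearest 5.13) and Pole 4.78 in 40 ppm replicate 4 (nearest 4.39).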

How the results depend on the processing

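The variance trend, quantile normalization, array median centring of the dose and response fits, and the mean of all probe sets left each count of called members within 1.5 times its value. With all 80 arrays in 1 fit, which pools the spread of the strains, CD-1 gained 4 called members at 40 ppm (Mcm3, Mcm4, Mcm5 and Mcm6) and 2 at 120 ppm (Mcm2 and Mcm3), the WT minus KO count at 10 ppm was 10, the WT minus TG count 9 and the WT minus CD-1 count 8, and at 120 ppm WT minus CD-1 had 1 (Rrm2). Rpa2 kept its change of 0.323 at 120 ppm in WT but not its call (adjusted p = 0.0635). The share of all genes called in the fit over all 80 arrays is not given here. The filter on low values gave 1 gene for WT minus CD-1 at 10 ppm (Mcm4) and 1 at 120 ppm (Orc5, lower in WT). Without centring, the air comparisons called 40 members for KO, 45 for TG and 27 for CD-1. The sign of E2f1, not called in any run, was reversed with the mean of its probe sets (-0.0408).

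Leaving out each array in turn gave 23 to 29, 30 to 36 and 31 to 34 called members in WT at 10, 40 and 120 ppm, and 0 in each run for KO, TG and CD-1 and between WT doses. WT minus KO gave 17 to 21, 19 to 22 and 24 to 25, WT minus TG 15 to 19, 18 to 24 and 20 to 25, and WT minus CD-1 0 to 1, 0 to 3 and 0 to 3. In air the ranges were 5 to 9 for KO, 16 to 22 for TG and 8 to 10 for CD-1, and the E2f1 change ran from -0.0173 to 0.0721. The KO air count of 5 came without WT 0 ppm replicate 2.

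Replicate numbers did not pair the samples: same-numbered arrays of a strain deviated together (correlation over 0.1) in 6 of 30 pairs for WT, 9 for KO, 8 for TG and 4 for CD-1. A replicate block gave 30, 34 and 34 called members in WT and 24 and 23 for WT minus KO and WT minus TG at 120 ppm, and moved no count beyond 1.5 times. Causes of these shifts were not tested.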
